A study of Mus musculus with 2 samples.

Results

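The 37 genes described here encode the enzymes of glycogen breakdown, glycogen synthesis and glycolysis in mouse muscle, with the regulators that sit beside them. They were taken by symbol from the gene tables of both libraries, and all 37 were found among 55536 genes. Aldoa was listed on 2 rows, so that the symbols held 38 rows. The row of higher level was used, and the other (ENSMUSG00000114515.2) had 0.65 and 0.38 TPM (a level scaled for transcript length and for the library total).

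Glycogen is the glucose store of a muscle fibre. Phosphorylase, switched on by phosphorylase kinase, releases glucose units from it, and glycolysis turns them into pyruvate and lactate while making ATP, a route on which fast fibres rely during short, intense work. Most of these reactions can be run by several isoenzymes, each from its own gene, and adult muscle is known for using its own set, whose loss causes muscle glycogen storage diseases such as McArdle disease (PYGM) and Tarui disease (PFKM).

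Total RNA was sequenced from the gastrocnemius, a calf muscle of mixed but mostly fast fibres, of female B6Cast F1 mice, the offspring of a C57BL/6J and CAST/EiJ cross, at 18 to 20 months after birth. Replicates 1 and 2 form 1 group, with no treatment in the labels, each from its own tissue sample with 300 ng of input RNA and ERCC spike-ins. The donor identifier on both names the strain, so separate animals are read from the tissue samples alone. There is no other group, and the difference between the libraries is 1 library against 1, with no test and no replicate check.

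Expected counts of genes summed to 38654555 in replicate 1 and 43722892 in replicate 2. The defining markers of fast fibres were present: all 10 genes of the list, among them Myh4 and Mylpf, reached 1 TPM in each library, and they took 19.4% and 17.9% of the TPM of nuclear protein-coding genes. The slow fibre list (Myh7, Myl2, Tnnt1 and 6 others) rose from a summed 451 TPM in replicate 1 to 2428 TPM in replicate 2. Of 5 neuronal markers none reached 1 TPM. In whole tissue, fewer cells of a type and less RNA per cell cannot be told apart.

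The glycolysis and glycogen genes were abundant as a group. Their summed level was 7.27% of the TPM of nuclear protein-coding genes in replicate 1 and 7.18% in replicate 2. At least 1 TPM in each library was found for 34 of 37, against 45.4% of the 22015 nuclear protein-coding genes and 19.7% of all genes. The exceptions were Eno2, the neuronal enolase (0.48 and 0.38 TPM), Pgm2, which acts on pentose and glucose phosphates (0.58 and 0.65 TPM), and Aldoc, the brain aldolase (0.87 and 1.15 TPM). Ordered by mean level, the genes spanned from Aldoa to Eno2, and the ranges of the 2 libraries overlapped for 16 of the 36 pairs of neighbours. The highest 4 places, Aldoa, Gapdh, Pygm and Eno3, did not overlap with one another. Pkm and Pfkm overlapped, as did Ldha, Pgam2 and Tpi1 in succession. This order is that of the levels by RSEM.

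**Figure D1:**
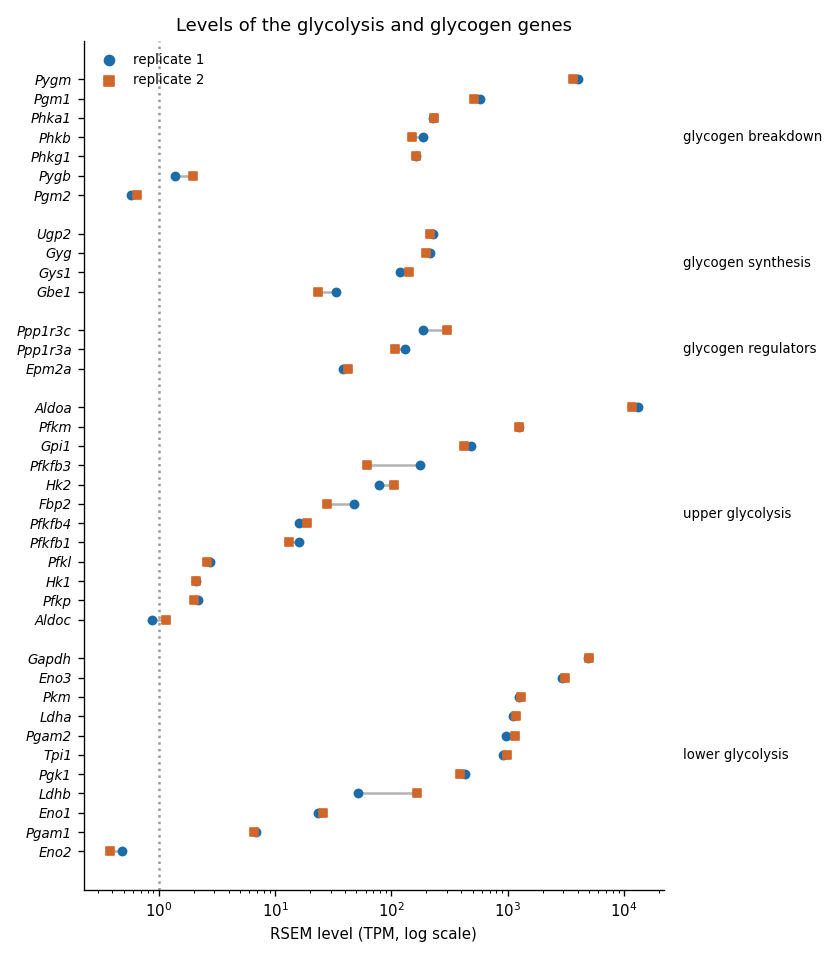
Level of each of the 37 genes in TPM by RSEM on a log axis, grouped by role, with a circle for replicate 1 and a square for replicate 2 (n = 2). The dotted line marks 1 TPM; the libraries lie close together for most genes and far apart for Pfkfb3 (175 and 61.3 TPM) and Ldhb (52.0 and 166 TPM).

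Glycogen breakdown was led by Pygm (ENSMUSG00000032648.14, chr19:6384399-6398459), the muscle phosphorylase that cleaves glucose units off glycogen. It stood at 4028 TPM in replicate 1 and 3655 TPM in replicate 2 (3842 ± 264, SD, n = 2), rank 15 of all nuclear protein-coding genes. Pygb, the brain phosphorylase, was at 1.37 and 1.97 TPM, and Pygl, the liver phosphorylase, at 0.57 and 0.63 TPM. Pygm therefore made up 99.94 ± 0.0162% of the phosphorylase TPM.

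Phosphorylase kinase is built of alpha, beta, gamma and calmodulin subunits. Phka1 (ENSMUSG00000034055.16, chrX:102513975-102644246), the muscle alpha subunit, was at 228 and 231 TPM. Phkb, the beta subunit shared by muscle and liver, was at 186 and 150 TPM, and Phkg1, the catalytic gamma subunit of muscle, at 162.0 and 161 TPM. The libraries were nearly equal for Phka1 and Phkg1 and 1.24 times apart for Phkb, and the subunits lay in 1 range, far below Pygm. Their counterparts of liver were low, with Phka2 at 2.24 and 2.10 TPM and Phkg2 at 4.22 and 3.92 TPM. The muscle gene thus held 99.1 ± 0.0501% of the alpha and 97.5 ± 0.120% of the gamma subunit TPM. Pgm1, the phosphoglucomutase that links glucose phosphates of glycogen and glycolysis, was at 580 and 513 TPM. Pgm1 on chromosome 4 and Pgm2 on chromosome 5 exchanged names between annotations, and the names of GENCODE M21 are used here.

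The 4 genes of glycogen synthesis summed to 599 and 575.5 TPM, against 5186 and 4712 TPM for the 7 of breakdown, most of it Pygm. Gyg, glycogenin, the primer on which a glycogen particle starts, was at 216 and 197 TPM. Ugp2, which makes UDP-glucose, was at 230.0 and 214 TPM. Gys1 (ENSMUSG00000003865.16, chr7:45434844-45456619), the muscle glycogen synthase, was at 119 and 141 TPM. Gys2, the liver synthase, had 0 counts in both libraries, which allows a level of up to 0.0776 and 0.0686 CPM (counts scaled to the library total; 3 counts per library, counting error only). Gbe1, the branching enzyme, was the lowest of the 4 at 33.2 and 23.6 TPM.

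Among the regulators, Ppp1r3a and Ppp1r3c target protein phosphatase 1 to glycogen, where it dephosphorylates synthase and phosphorylase. Ppp1r3a, the muscle targeting subunit, was at 130.0 and 108 TPM. Ppp1r3c (ENSMUSG00000067279.3, chr19:36731731-36736653), also called PTG and present in many tissues, was at 186 and 298 TPM and was above Ppp1r3a in both libraries. The muscle subunit held 40.2% of the TPM of the 7 targeting subunits in replicate 1 and 26.4% in replicate 2, and Ppp1r3c held 57.5% and 72.6%. Epm2a, laforin, the glycogen phosphatase that is lost in Lafora disease, was at 38.2 and 42.1 TPM.

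In upper glycolysis, Hk2 (ENSMUSG00000000628.10, chr6:82725025-82774454), the insulin-responsive hexokinase of muscle that traps glucose, was at 78.7 and 104 TPM. Hk1, the hexokinase of most other tissues, was at 2.11 and 2.07 TPM. Hk2 held 96.2 ± 0.746% of the hexokinase TPM, yet it was the lowest of the main enzymes on the direct route from glucose to lactate. Gpi1, glucose phosphate isomerase, was at 487 and 424 TPM.

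Pfkm (ENSMUSG00000033065.14, chr15:98092589-98132451), the muscle phosphofructokinase that commits sugar to glycolysis, was at 1250 and 1257 TPM, so that the libraries were nearly equal. Pfkl, the liver form, was at 2.76 and 2.58 TPM and Pfkp, the platelet form, at 2.16 and 2.02 TPM. Pfkm held 99.6 ± 0.0195% of the phosphofructokinase TPM.

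The bifunctional PFK-2 enzymes make and remove a regulatory fructose bisphosphate that activates phosphofructokinase. It is a different molecule from the fructose bisphosphate that aldolase splits. Pfkfb1, the form named for liver and muscle, did not lead them, at 15.9 and 13.1 TPM. Pfkfb3 (ENSMUSG00000026773.19, chr2:11471433-11554077), an inducible form with high kinase activity, led in both libraries with 175 and 61.3 TPM. Pfkfb4 was at 16.1 and 18.9 TPM and Pfkfb2, the heart form, at 4.64 and 4.24 TPM. The Pfkfb1 share of this step was 7.52% in replicate 1 and 13.5% in replicate 2, and the Pfkfb3 share 82.7% and 62.9%.

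Fbp2, the muscle fructose bisphosphatase that removes the phosphate added by phosphofructokinase, was at 47.7 and 27.8 TPM. Fbp1, the liver form, was listed at 0 and 0.11 TPM. Aldoa (ENSMUSG00000030695.16, chr7:126795234-126800751), aldolase A, which splits fructose bisphosphate, was the most abundant of the 37 at 13103 and 11794 TPM (12448 ± 926), rank 6 of nuclear protein-coding genes. It held 99.99 ± 0.00382% of the aldolase TPM.

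Lower glycolysis held 7 genes near or above 400 TPM. Tpi1, triose phosphate isomerase, was at 912 and 979 TPM. Gapdh (ENSMUSG00000057666.18, chr6:125161715-125166467), the dehydrogenase that makes NADH, was at 4933 and 5008 TPM, rank 13, and Pgk1, the kinase that first returns ATP, at 431 and 386 TPM. Pgam2 (ENSMUSG00000020475.3, chr11:5801640-5803733), the muscle phosphoglycerate mutase, was at 971 and 1153 TPM, and Pgam1, the form of brain and most other tissues, at 6.92 and 6.58 TPM. Pgam2 held 99.4 ± 0.0995% of the mutase TPM in a step with no overlap between the isoenzymes.

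Eno3 (ENSMUSG00000060600.15, chr11:70657202-70662513), beta enolase of muscle, was at 2903 and 3101 TPM, rank 16. Eno1, the alpha enolase of most tissues, was at 23.5 and 26.0 TPM, and Eno3 held 98.7 ± 0.0318% of the enolase TPM. Eno1 shares most of its sequence with Eno1b (12.5 and 14.0 TPM) and with the pseudogene Gm4735. These copies took 50.1% and 49.1% of the expected counts of the 3 genes, so the level of Eno1 is uncertain.

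Pkm (ENSMUSG00000032294.17, chr9:59656368-59679375), the pyruvate kinase of muscle and most other tissues, was at 1248 and 1306 TPM. Pklr, the form of liver and red cells, had 0 counts in both libraries. Ldha (ENSMUSG00000063229.15, chr7:46841475-46855627), the lactate dehydrogenase subunit of fast muscle, was at 1109 and 1183 TPM. Ldhb (ENSMUSG00000030246.11, chr6:142490249-142507957), the subunit of heart and oxidative fibres, was at 52.0 and 166 TPM, low in replicate 1 and high in replicate 2. Ldhc, the testis form, had 0 counts in both libraries.

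Of the 13 steps with several isoenzymes, 11 were led by the muscle form, which held over 50% of the TPM of the step in each library. The exceptions were the phosphatase targeting subunit and PFK-2, both regulatory steps. The label of muscle form was assigned to a gene of each step and does not mean that the gene is limited to muscle. No other tissue was sequenced here. By RSEM TPM, the mean share of the muscle form was above 96% in 10 of the 11 led steps. The remaining one was lactate dehydrogenase, where the Ldha share was 95.5% in replicate 1 and 87.7% in replicate 2 (91.6 ± 5.53%). By kallisto the Ldha share was 93.0% and 81.7%, in the same direction. The mean Hk2 share of hexokinase, 96.2% by RSEM TPM, fell below 96% by other estimates. It was 94.9% by kallisto and 93.7% by the posterior mean TPM, a second estimate of RSEM.

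**Figure D2:**
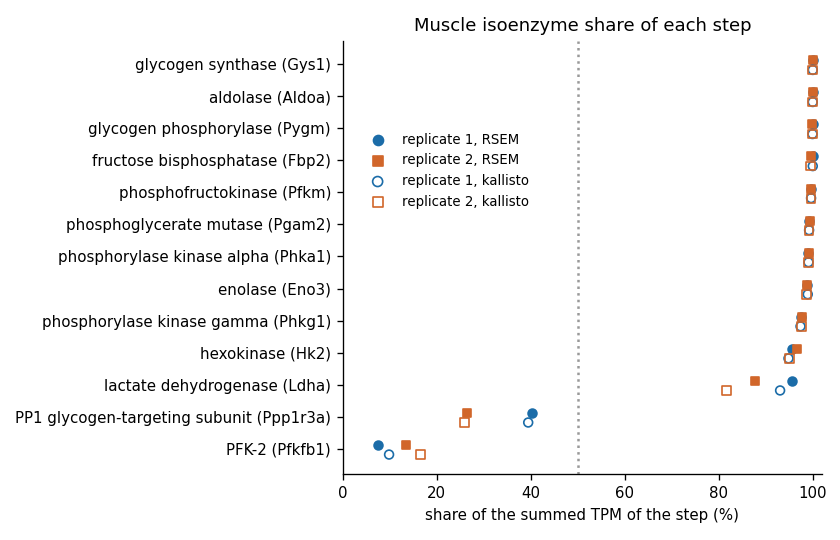
Share of the summed TPM of each of 13 steps held by the muscle isoenzyme named in brackets, for replicates 1 and 2 by RSEM (filled) and by kallisto (open). The dotted line marks 50%; 11 steps lie above it in both libraries, and lactate dehydrogenase, the targeting subunit and PFK-2 show the widest gaps between libraries.

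Promoter sequence is shown for the mutase pair, which was picked after the matches were seen because the muscle gene holds both of the motifs marked and each gene has 1 window in the RefSeq table (GRCm38.p6). The 250 bases before each start site are printed in the direction of the gene, Pgam2 from chr11:5803797-5804046 on the minus strand and Pgam1 from chr19:41911621-41911870 on the plus strand. Capitals mark matches to CAGCTG, an E-box that myogenic factors can bind, and to a MEF2 consensus.
Pgam2: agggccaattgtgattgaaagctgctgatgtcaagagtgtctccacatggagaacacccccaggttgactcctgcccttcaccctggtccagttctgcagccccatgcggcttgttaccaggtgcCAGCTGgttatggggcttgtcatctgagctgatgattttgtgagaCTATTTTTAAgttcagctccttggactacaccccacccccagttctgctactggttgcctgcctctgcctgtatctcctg
Pgam1: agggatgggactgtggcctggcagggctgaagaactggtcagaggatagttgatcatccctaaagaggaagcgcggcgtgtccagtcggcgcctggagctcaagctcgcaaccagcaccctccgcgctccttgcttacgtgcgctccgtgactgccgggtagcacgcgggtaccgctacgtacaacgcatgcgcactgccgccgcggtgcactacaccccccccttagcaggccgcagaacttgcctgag

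The Pgam2 window held CAGCTG at position -125 and the MEF2 consensus at -80, counted from the RefSeq start site and with no base in common, and the Pgam1 window held neither. That start site lies 63 bases from the start of the leading GENCODE M21 transcript for Pgam2 and 52 bases for Pgam1. GC content was 53.2% for Pgam2 and 64.0% for Pgam1. Over windows from 250 bases before to 50 after each start site, read on both strands, CAGCTG was present for 9 of the 13 muscle isoenzymes and for 3 of the 23 other isoenzymes found in the table, of 29 in all. It was also present for 18.3% of all 27025 genes and in 16.3% of all 32851 windows there. The MEF2 consensus was found for Pgam2, Ppp1r3a and Pfkfb1, for 0 of 23 other isoenzymes and for 2.16% of all genes. Ppp1r3a and Pfkfb1 belong to the targeting subunit and PFK-2 steps, which the muscle form did not lead. The letters TATAAA were found for 2 muscle isoenzymes, 1 other isoenzyme and 15.7% of all genes. Genes with several start sites had more windows to match in (22 for the muscle and 31 for the other isoenzymes). A match describes the letters only, and no binding was measured.

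Pyruvate kinase differs from the other steps in that its muscle form is a transcript and not a gene. Pkm carries a pair of mutually exclusive exons of 167 bases, the M1 exon at chr9:59675029-59675195, typical of adult muscle, and the M2 exon at chr9:59675568-59675734, typical of proliferating and many other cells. The exons are printed from the GENCODE M21 transcripts (mm10, plus strand), and capitals mark the bases at which they differ.
Pkm M1 exon: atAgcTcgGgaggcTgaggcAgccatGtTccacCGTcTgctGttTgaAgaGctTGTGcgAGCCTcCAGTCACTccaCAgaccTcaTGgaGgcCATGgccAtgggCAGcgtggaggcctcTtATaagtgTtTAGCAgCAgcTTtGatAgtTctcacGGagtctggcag
Pkm M2 exon: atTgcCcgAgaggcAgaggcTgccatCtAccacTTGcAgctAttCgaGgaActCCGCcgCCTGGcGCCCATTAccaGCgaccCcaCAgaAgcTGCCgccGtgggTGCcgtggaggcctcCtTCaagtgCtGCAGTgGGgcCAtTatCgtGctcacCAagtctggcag

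The exons differed at 64 of 167 positions (61.7% identical). By RSEM, Pkm-202, the transcript with the M1 exon, took 54.9% of the TPM of Pkm in replicate 1 and 53.7% in replicate 2. Pkm-201, with the M2 exon, took 43.4% and 44.9%. The libraries were alike, and the tools were not. By kallisto, Pkm-202 took 43.1% and 42.3% and Pkm-201 43.9% and 45.9%, and the 9 transcripts with neither exon took 13.0% and 11.8%. Of the TPM of both exon forms, the M1 form held 55.8% and 54.5% by RSEM and 49.5% and 47.9% by kallisto. Pkm-201 is also longer by 205 bases at its start and 186 at its end, so reads outside the exons enter the split, and it is not a count of exon junctions.

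The split of other abundant genes into transcripts also depended on the tool. The 2 quantifiers named different leading transcripts for 12 of 37 genes, of which 34 have several transcripts and could differ. For Aldoa, RSEM gave 64.4% to Aldoa-203, to which kallisto gave almost nothing, and kallisto gave 60.9% to Aldoa-201. For Eno3, RSEM put Eno3-201 ahead with 45.5% and kallisto Eno3-202 with 64.5%, and for Ldha, RSEM gave Ldha-202 98.5% and kallisto gave Ldha-201 52.1%. Pfkm-205 led by both tools, with 81.1% and 38.3%, as did Gpi1-201, with 47.9% and 43.3%. For Gapdh, RSEM gave 66.8% to Gapdh-208, annotated as a processed transcript of 483 bases with no coding sequence, to which kallisto gave 0 in replicate 1 and 0.39 TPM in replicate 2.

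**Figure D3:**
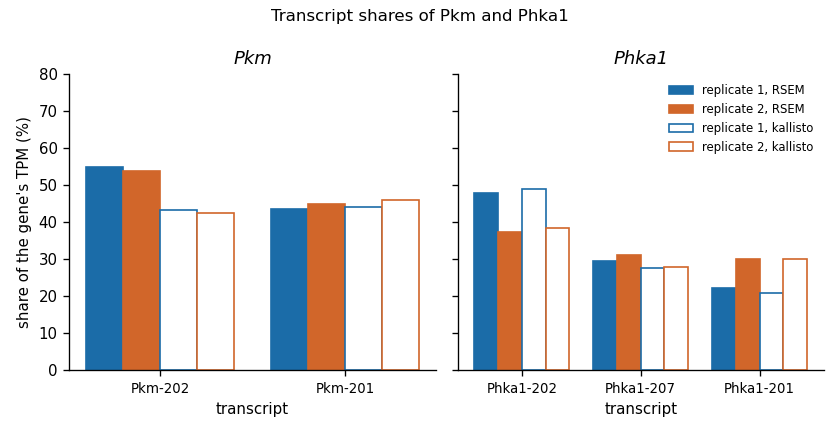
Share of the TPM of Pkm and of Phka1 held by their main transcripts, as bars for replicates 1 and 2 by RSEM (filled) and kallisto (outlined). Pkm-202 holds the M1 exon and Pkm-201 the M2 exon; the Pkm shares differ between tools, and the shares of Phka1-202 and Phka1-201 differ between libraries by either tool.

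Gene levels depended on the tool as well. Over the 37 genes, the median ratio of the kallisto to the RSEM level was 1.42 in replicate 1 and 1.27 in replicate 2, while the median ratio of counts was 1.06 in both. Gapdh stood apart. RSEM gave it 92726 and 105892 counts and kallisto 163234 and 185281. Gapdh shares at least 50% of its 31-base words with 43 other genes, 41 of them pseudogenes. These copies took 4867 and 5192 counts by RSEM and 69376 and 78461 by kallisto. The processed pseudogene Gm7336 held 67486 and 75896 of the kallisto counts, and 1188 and 1274 of those by RSEM. Gapdh and its copies together had 2.38 and 2.37 times as many counts by kallisto as by RSEM. The level of Gapdh, often used as a reference gene, was 15347 and 13855 TPM by kallisto, below Aldoa (17260 and 14532 TPM) in each library, as by RSEM. Ldhb had nearly equal counts by both tools but 115 and 359 TPM by kallisto, over 2 times its RSEM level, and it too was low in replicate 1 and high in replicate 2. Copies took 7.81% and 9.99% of the counts of Pgk1 and its 3 pseudogenes by RSEM, and 4.82% and 4.60% for Gpi1 and its pseudogene.

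**Figure D4:**
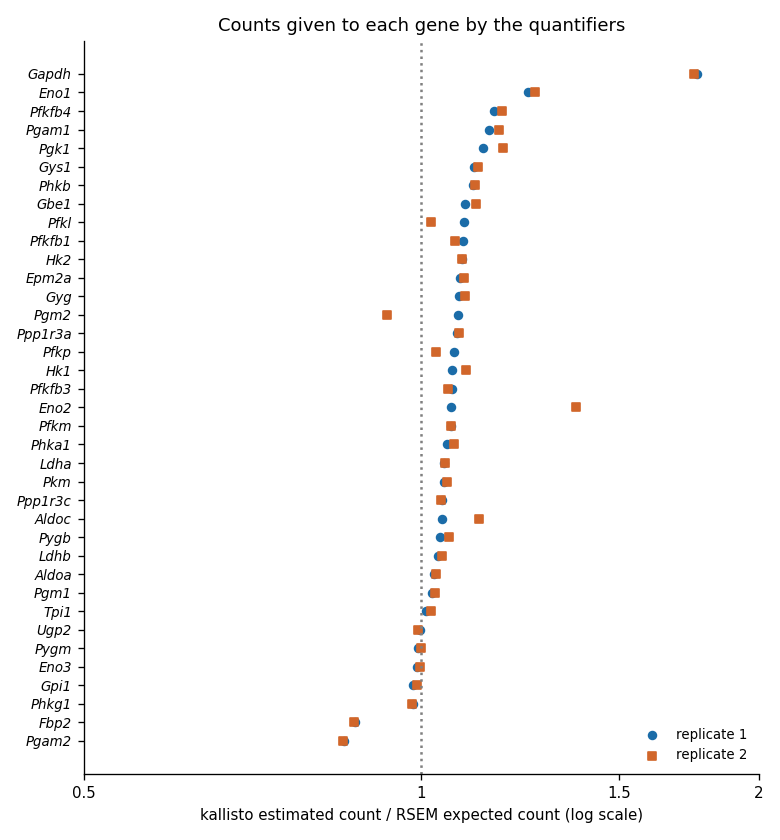
Kallisto estimated count over RSEM expected count for each of the 37 genes on a log axis, with a circle for replicate 1 and a square for replicate 2. Gapdh lies farthest to the right at 1.76 and 1.75, and Pgam2 farthest to the left at 0.854 and 0.852.

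The libraries were compared by the log2 ratio of replicate 2 over replicate 1 after TMM scaling, which sets the bulk of genes near 0. This scale differs from TPM, so that Pygm had a lower TPM in replicate 2 and a log2 ratio of 0.01. Eno2 had too few counts for a ratio (28 and 16), which left 36 genes. Their median log2 ratio was 0.14, with 25 above and 11 below 0, and the median of all 12969 genes compared was 0.00, with quartiles of -0.19 and 0.21. Within 1.5-fold lay 32 of the 36, against 86.3% of all genes. The direction of the median rested on the scaling. With spike-in scaling the median of all genes moved to -0.22 and that of the 36 to -0.08, with 13 above 0, and with total counts they moved to -0.15 and 0.00. In each case the median of the 36 was higher than that of all genes. A change of scaling shifts all genes nearly alike, so these cases are not separate checks.

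By role, glycogen breakdown had a median of 0.15 over 7 genes, all within 1.5-fold, and glycogen synthesis of 0.04 over 4 genes, all within 1.5-fold. Upper glycolysis had a median of 0.00 over 12 genes, with 6 above and 6 below 0. Lower glycolysis had a median of 0.24 over 10 genes, of which 9 were above 0. With spike-in scaling these medians were -0.08, -0.18, -0.22 and 0.02, and 6 of the 10 lower glycolysis genes were above 0. Pgam2 (0.40), Tpi1 (0.26), Eno3 (0.24), Ldha (0.24), Pkm (0.22) and Gapdh (0.16) were close together there, and Pgk1 was at -0.01. Of these Gapdh turned to -0.06 and Pkm to just under 0 with spike-in scaling, and Pgk1 to 0.05 by kallisto counts. The 13 muscle isoenzymes had a median of 0.15 and the 21 other isoenzymes with enough counts one of 0.03. With spike-in scaling the muscle median was -0.08, and that of the others was not computed. That scaling moved the median of all genes to -0.22, so -0.08 is not to be set against 0.03.

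At least 2-fold apart were 2 of 36 genes, Ldhb higher and Pfkfb3 lower in replicate 2, against 4.64% of all genes compared. The share was near that background, which was 2.7% for higher and 1.94% for lower. Ldhb had 1498 and 5435 expected counts and was 3.55-fold higher in replicate 2 (95% counting interval 3.36 to 3.77, log2 ratio 1.83). Of all genes 0.686% rose as far or farther. Pfkfb3 had 14235 and 6076 counts and was 2.39-fold lower in replicate 2 (2.32 to 2.47, log2 ratio -1.26), and 1.06% of all genes fell as far. Both stayed past 2-fold under each of the 7 other settings of scaling, counts, prior count and filter. Intervals cover counting error only.

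Between 1.5-fold and 2-fold lay Ppp1r3c and Fbp2. Ppp1r3c was 1.78-fold higher in replicate 2 (1.74 to 1.82), and 3.92% of all genes rose as far. Fbp2 was 1.55-fold lower (1.44 to 1.67), and 5.40% of all genes fell as far. Hk2 followed at 1.40-fold higher (1.37 to 1.44), Gys1 and Pgam2 at 1.32-fold higher, and Gbe1 at a log2 ratio of -0.30. Pygm (0.01), Gpi1 (0.00) and Aldoa (0.00) were nearly equal in the libraries after TMM scaling. For Aldoc, 45 and 40 counts gave a ratio of 0.876 (0.554 to 1.36), while its TPM was higher in replicate 2, and the counts do not settle its direction. Equal levels lay within the intervals of 12 of the 36 genes, namely Aldoc, Pgm2, Pygb, Pfkl, Pfkp, Hk1, Pfkfb1, Pgam1, Gyg, Gpi1, Aldoa and Pgk1. The intervals were computed for TMM scaling, and which genes include equality rests on it. With spike-in scaling the log2 ratio was -0.22 for Gpi1 and -0.23 for Aldoa and Pgk1.

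**Figure D5:**
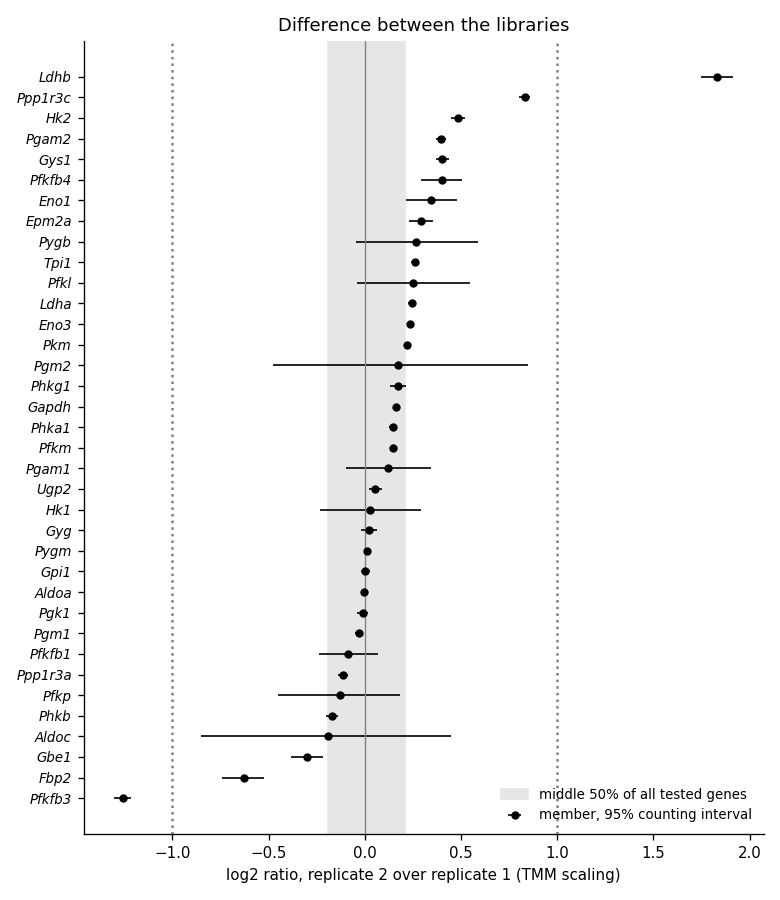
Log2 ratio of replicate 2 over replicate 1 for the 36 genes with enough counts, after TMM scaling, with 95% counting intervals (1 library against 1). The grey band spans the quartiles of all 12969 genes (-0.19 to 0.21) and dotted lines mark 2-fold; Ldhb and Pfkfb3 lie outside them.

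Markers of fibre types and of other cells were read on the same TMM scale. Of the slow fibre list, 9 of 9 genes passed 2-fold toward replicate 2, at log2 ratios of 2.22 to 2.86 (median 2.53). Of the 10 fast fibre genes only Myh1 did (1.38), around a list median of 0.01, and their summed level was 90505 and 81824 TPM. Fibro-adipogenic markers had a median of 0.56, with 3 of 6 past 2-fold (summed 404 and 415 TPM), adipocyte markers 0.43 with 0 of 5 (69.0 and 77.2 TPM), and macrophage markers -0.32 with 1 of 5 lower (27.4 and 21.2 TPM). Endothelial, smooth muscle, erythrocyte and Schwann cell lists had medians between -0.12 and 0.03. The neuronal list was at 0.08 and 0.07 TPM in sum, with 2 of 5 at 0 counts. Their part in the differences of Ldhb, Pfkfb3, Ppp1r3c and Fbp2 was not tested.

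Another 36 genes of the same pathways were listed for comparison, and 21 of them reached 1 TPM in each library. Slc2a4, the insulin-responsive glucose transporter GLUT4, was at 198 and 192 TPM, and Slc2a1, the basal transporter, at 2.87 and 2.72 TPM. Gaa, the lysosomal glucosidase that is lost in Pompe disease, was at 106 and 83.5 TPM. Tigar, a phosphatase of the regulatory fructose bisphosphate, was at 57.8 and 43.6 TPM. Bpgm, bisphosphoglycerate mutase, was at 40.3 and 46.0 TPM and G6pc3, the widely expressed glucose phosphatase, at 27.1 and 26.4 TPM. Stbd1, a glycogen-binding protein, was at 32.5 and 17.9 TPM. By RSEM 7 of the 36 had 0 counts in each library, all of them forms of other tissues or germ cells (Gys2, Hkdc1, Pgk2, Gapdhs, Eno4, Pklr and Ldhc). Of 23 with enough counts 9 were above and 14 below 0, with a median log2 ratio of -0.12, and 1 was past 2-fold, Ppp1r3b, the liver targeting subunit, at -1.46 from 60 and 21 counts.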

How the data were processed

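Expected counts and TPM per gene and transcript were deposited by the authors with the column names that RSEM writes, and estimated counts and TPM per transcript with those of kallisto, per the file headers. Build mm10 and annotation GENCODE M21 come from the deposited notes, with the aligner and the versions of the tools not given in the sources used here. Gene values of kallisto are sums over transcripts. Expected counts were rounded, scaled by TMM (edgeR 4.0.16 under R 4.3.3), and compared as log2 CPM with a prior count of 2 where both libraries summed to 50 counts or more. DESeq2 1.42.0 gave other size factors. Intervals at 95% are exact conditional binomial ones, and the depth of the libraries (38654555 and 43722892 counts) sets them. With 2 libraries of 1 group no p-value was computed. The calculation of log2 ratios was also run on counts simulated with known fold changes. That run concerns the calculation alone and not the spread between these libraries. Copies were genes holding at least 50% of a member's words of 31 bases. Tables and plots were made in Python 3.11.15 (pandas 2.3.3, numpy 2.4.6, matplotlib 3.10.9).

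The members and lists were chosen with earlier results of these data known. All members are named; other pathway genes are named where they reach 1 TPM in both libraries or belong to an isoenzyme step, and transcripts for Pkm and the 6 genes of highest level whose leading transcript differs between tools or holds under 70%. The 0-count genes and markers outside that rule were named after their values were seen. A few of the other pathway genes are not reported here.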

Additional observations from a re-analysis of the deposited data

How the results depend on the processing

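No paired analysis was possible because there is 1 group, whose replicate numbers match no other samples. The median log2 ratio of the members moved from 0.14 to -0.08 with spike-in scaling and to 0.00 with total counts, and was 0.14 to 0.16 under the other 5 settings. Members at or above 1 TPM numbered 34 to 35 with a library left out and 30 to 36 under other estimates and minimums. The muscle isoenzyme led 11 of 13 steps under every estimate and with either library left out. Its share moved beyond the spread between libraries for 9 of 13 steps by RSEM posterior mean TPM and for 4 of 13 by kallisto. With spike-in scaling 12 log2 ratios changed sign, from above 0 to values between -0.22 and 0.00 (Pygm, Phka1, Phkg1, Pgm2, Gyg, Ugp2, Hk1, Gpi1, Pfkm, Gapdh, Pgam1 and Pkm, the last at just under 0). With total counts 8 did so, to values between -0.15 and 0.00 (Pygm, Phka1, Gyg, Ugp2, Hk1, Gpi1, Pfkm and Pgam1). By kallisto counts Pgm2 (-0.03), Pgk1 (0.05) and Aldoa (0.00) did so, and under other count filters Aldoa, Pgk1 and Gpi1, all within 0.01 of 0. The median of all genes was -0.22 with spike-in scaling and -0.15 with total counts. The members shifted nearly alike, so that ratios just above 0 crossed it. The cause of the changes by kallisto counts and by filter was not tested. Levels moved beyond the spread between libraries for 32 of 37 genes by kallisto. Depth limits Eno2, Pgm2 and Aldoc, which had under 50 counts in each library.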

Other observations

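Phka1 was chosen here after its values were seen. Phka1-202 holds an exon of 177 bases (chrX:102557096-102557272, mm10) that Phka1-201 lacks. By RSEM, Phka1-202 took 47.7% of the TPM of the gene in replicate 1 and 37.2% in replicate 2, and Phka1-201 took 22.1% and 30.0%. By kallisto the shares were 48.9% and 38.3% for Phka1-202, and 20.8% and 29.9% for Phka1-201. The gene as a whole was nearly level (228 and 231 TPM), so the form with the exon was lower and the form without it higher in replicate 2 by both tools. A retained-intron transcript, Phka1-207, took 29.4% and 31.1% by RSEM. The difference is 1 library against 1 and has no replicate check.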
